A study of Rattus norvegicus with 14 samples.

Results

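Soleus muscle examined 6 weeks after tenotomy was compared with soleus muscle examined 3 and 4 weeks after tenotomy, to see which genes had moved back to the level of control muscle by week 6 and which had not. The comparison rests on 4 of the 14 arrays of the study, taken by the week in the sample titles: 2 arrays of 6 weeks (rats 61 and 62) and 1 array each of 3 weeks (rat 32) and 4 weeks (rat 42). Tenotomy severs the tendon, so that the muscle no longer bears its normal load. All animals were male Sprague Dawley rats with free access to food and water under a 12 h day and night cycle, and the labels give no age. Per the sample names, every tenotomized muscle came from the right leg and every control from the left. Of the 4 control muscles, control 1 came from rat 62 and control 4 from rat 61, which also gave the 6-week muscles, and controls 2 and 3 from a pair of rats with no tenotomized array. Neither rat 32 nor rat 42 gave a control. The labels class weeks 3 and 4 as short-term and week 6 as long-term immobilization. Week and animal cannot be told apart, because no rat was sampled at both times, and the spread within the earlier pair also holds the step from week 3 to week 4. Arrays of 1, 2, 16 and 22 weeks entered the same fit and are used here for context.

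The soleus is a postural calf muscle of mostly slow, oxidative fibres that burn fatty acids in their mitochondria. Around the fibres lies connective tissue whose fibroblasts make collagens and matricellular proteins, and whose resident macrophages clear debris. Unloading is known to lower genes of oxidative metabolism, and tendon injury to raise genes of matrix and inflammation. The values are microarray signals from whole muscle, in which fewer cells of a type and less RNA per cell cannot be told apart.

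Replicates resembled each other more than arrays of the other time. Over the 11086 genes tested, the 2 arrays of week 6 correlated with r = 0.979 and those of weeks 3 and 4 with r = 0.967, while pairs of 1 array from each time lay between 0.894 and 0.927 (across genes, which are not independent). The 6-week arrays correlated with the controls at 0.962 to 0.982, as the controls did with each other (0.961 to 0.974). On the first principal component, with 55.9% of the variance, the arrays of weeks 3 and 4 stood at -44.5 and -63.9, those of week 6 at 22.5 and 21.5, and the controls between 33.2 and 39.8. Poly-A spike-in signals, foreign transcripts added before labelling, were 90.6 and 134 at weeks 3 and 4, 67.4 and 76.9 at week 6 and 52.7 to 81.9 in controls, and their part in the results was not tested. The 3′ to 5′ signal ratio of Gapdh, a check of RNA quality, was 1.61 and 1.28, then 1.54 and 1.41, beside 1.38 to 2.78 in controls. That of actin was 2.66 and 2.28, then 2.15 and 2.03, beside 1.47 to 2.37. The part of RNA quality in the results was not tested. Deposited array medians ran from 29.8 to 49.3, and arrays have no count depth, so their number limits the precision. The defining markers of slow fibres were bright on all 14 arrays. Myh7, the slow myosin heavy chain, had signals of 8575 and 7956 at weeks 3 and 4, 10268 and 9879 at week 6 and 8455 to 11381 in controls. Of Atp2a2, Myl2, Tnni1 and Tnnt1 the lowest signal on any array was 5152, for Myl2 at week 1.

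By week 6 most of the shift seen at weeks 3 and 4 was gone. Between the times, 2901 of 11086 genes differed (limma, Benjamini-Hochberg adjusted p below 0.05), a background of 26.2% of genes. Of these, 1729 were higher at 6 weeks (15.6%) and 1172 lower (10.6%). The split depended on how arrays were brought to a common scale: 280 higher and 1012 lower on the deposited scale, 2008 and 937 with a common median over all probe sets, 1500 and 1227 with a common 75th percentile, 991 and 1168 after quantile normalization and 926 and 1477 with a common 2% trimmed mean. The 2 arrays of each time did not overlap in 7898 genes (71.2%), 4831 higher at 6 weeks (43.6%) and 3067 lower (27.7%). In all 6 scalings 277 genes were higher (2.50%) and 846 lower (7.63%). The median gene itself differed by 0.16 on the log2 scale between the times and by -0.17 between weeks 3 and 4 and control, so each log2 difference printed for a gene has the median gene's difference taken off. Tests and calls were made on the scaled difference before that step. The count leaned on the single array of week 4: without it 209 genes were called (92 higher, 117 lower), and week 3, then alone, was assumed to vary like the other groups. Without the week 3 array 2303 were called, and without the 6-week array of rat 61 or rat 62 it was 589 or 756.

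Against the 4 controls, which both comparisons share, the tenotomized muscles of weeks 3 and 4 differed in 4683 genes (42.2%), 1826 higher and 2857 lower. Those of week 6 differed in none by limma (0%), and 496 genes had an unadjusted p below 0.05. The median 95% half-width of a 6-week difference from control, before adjustment, was 0.51 on the log2 scale, a factor of 1.42. For a typical gene a difference smaller than that was not detectable with these arrays. Larger differences also went uncalled after adjustment, such as Reep6 (-1.94, SE 0.38, limma adjusted p = 0.842). The count of 0 therefore does not exclude differences above a factor of 1.42. The count at 6 weeks was 0 in all 6 scalings, but 29 without the control muscle of rat 61, a case taken up with the lagging genes.

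Return was described for the 2221 genes that differed from control at weeks 3 and 4 with a log2 difference of at least 1, 1320 higher and 901 lower. A gene had returned if 6 weeks had closed at least 75% of the log2 distance to the control mean, lagged if it had closed less than 25%, and was partial in between. By this measure 1567 genes (70.6%) had returned, 638 (28.7%) were partial and 16 (0.72%) lagged. The median return was 83.6%, with 83.9% on the array of rat 61 and 83.0% on that of rat 62, and 1100 genes had returned on both. Genes that had been higher and genes that had been lower closed nearly the same share, 83.7% and 83.2%. Only 36 genes had moved past control by more than 25% of the distance. Since genes picked for a large difference tend to show a smaller one on other arrays, these shares are a description with no test. A choice made on other tenotomized arrays, and on controls left out of the measure that followed, gave a like picture. That measure used the controls of rats 61 and 62, which also gave the 6-week muscles, so its week 6 values share their animals. The 1740 genes that differed by a log2 of 1 or more at weeks 1 and 2 from controls 2 and 3 stood, against the controls of rats 61 and 62, a median of 1.28 away in their early direction at weeks 3 and 4 and 0.20 away at week 6. At week 6, 79.5% of them were still on that side of control, and on the single later arrays the median was -0.09 at 16 weeks and -0.23 at 22 weeks.

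**Figure D1:**
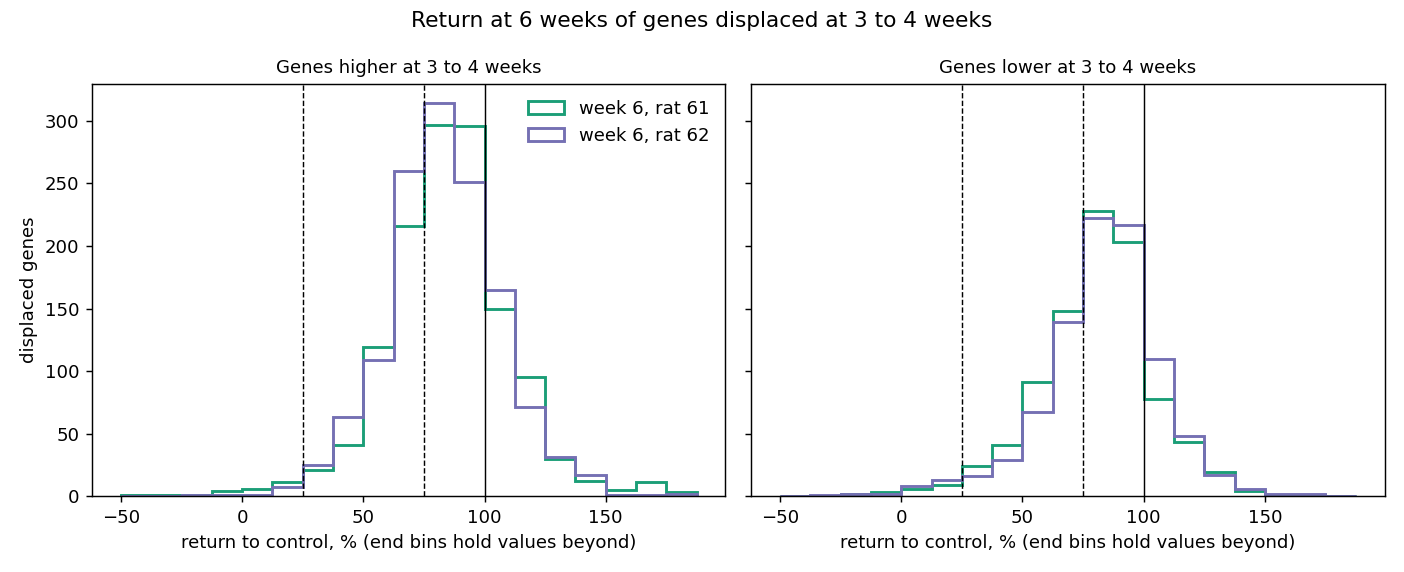
Number of displaced genes (y axis) by percent of the distance to control closed at 6 weeks (x axis), on each of the 2 arrays of week 6, for the 1320 genes higher and the 901 genes lower at weeks 3 and 4. Dashed lines mark the limits of 25% and 75%, the solid line the control mean, and both arrays peak between 75% and 100%.

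Every collagen, matricellular and crosslinking gene called between the times was lower at 6 weeks, where 10.6% of all genes tested were lower and 15.6% higher. Of 22 collagen genes tested, 16 were lower and 0 higher, each of the 16 in all 6 scalings, with a list median of -1.96 where the median over all genes tested is 0 by construction. Of the 19 displaced, 10 had returned and 9 were partial. The list median stood 2.29 and 2.53 above control at weeks 3 and 4, 0.47 and 0.40 above at week 6, and -0.17 and -1.07 at 16 and 22 weeks. Among matricellular and other matrix proteins 27 of 42 were lower and 0 higher (median -1.47), with 16 returned and 16 partial. Among enzymes that process and crosslink collagen 12 of 19 were lower and 0 higher (median -1.33), with 9 returned and 4 partial. As for all genes, the calls in these lists and in the macrophage and oxidative lists below leaned on the week 4 array. Without it the list medians were -1.93 for collagens, -1.52 for matricellular proteins and -1.30 for the enzymes. They were -1.40 for macrophage markers and 0.79 for fatty acid oxidation.

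Col1a1, the main chain of type I collagen, had signals of 6252 and 7167 at weeks 3 and 4, 1436 and 1644 at week 6 and 522 to 1409 in controls. Its 6-week arrays thus lay below both earlier arrays and just above the highest control, a difference of -2.28 (SE 0.44, adjusted p = 0.00804) with 71.6% of the distance closed. Col3a1, of the softer type III fibrils, went from 7968 and 8272 to 3576 and 4699, beside 2384 to 3841 in controls, and was also partial (-1.14, SE 0.25, adjusted p = 0.0162). Larger differences came from Col12a1 (-3.18), Col11a1 (-3.06), Col16a1 (-2.59) and Col18a1 (-2.54), and these 4 had returned. Lox, the copper enzyme that crosslinks collagen and elastin, had signals of 2344 and 2169, then 280 and 284, beside 148 to 234 in controls (-3.16, SE 0.40, adjusted p = 0.00262). P4ha3, a prolyl hydroxylase subunit, Fkbp10, a collagen chaperone, and Pcolce, which speeds removal of the procollagen tail, differed by -3.82, -3.02 and -2.52. Emilin1, an elastic fibre protein, had 159 and 184, then 24.8 and the floor of 9.70, to which lower signals were raised (-3.62), and 1 control was at the floor too.

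Other matrix proteins showed both outcomes. Tnn, tenascin-N, was bright at weeks 3 and 4 (1666 and 1038) and at that floor on both arrays of week 6 and on each control, at least 136-fold lower at 6 weeks (adjusted p = 0.0023). Tnc, tenascin-C, went from 1280 and 823 to 127 and 76.6, beside 58.5 to 102 in controls (-3.53, adjusted p = 0.021). Postn, periostin, went from 5328 and 4839 to 767 and 823 and was called (-2.83, adjusted p = 0.0287), but its controls spread from 160 to 1508, the highest being rat 61, so its place among partial genes rests on a wide control range. Cthrc1, a secreted protein of injured tissue, had signals of 2104 and 1597, then 45.9 and 44.9, beside 16.6 to 33.2 in controls (-5.49, SE 0.72, adjusted p = 0.00262). Spon1, a matrix glycoprotein, went from 1125 and 1422 to 37.3 and 42.6 (-5.15, adjusted p = 0.00104). C1qtnf3 (-4.43) and Srpx2 (-4.10), both secreted, were among the 10 largest falls too. Scg2, a secretory granule protein, was at the floor at week 6 after 276 and 267, at least 28.0-fold lower. A gene was tested only if its signal was above 22.0 on at least 4 arrays. Tnn and Scg2 passed this filter only through arrays of weeks 1 to 4, which fixed their fall in part. P4ha3 would not have passed without those arrays either, so its fall and its part in the enzyme count were fixed in part.

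Called genes of proteases were all lower too, where 10.6% of all genes tested were lower. In the list of matrix proteases and inhibitors 11 of 22 were lower and 0 higher (median -1.27), and 11 of 13 displaced members had returned. Ctsk, a collagen-degrading cathepsin, went from 1291 and 1277 to 170 and 171, beside 68.0 to 108 in controls (-3.07, adjusted p = 0.00359). Timp1, an inhibitor of metalloproteinases, went from 1862 and 2397 to 288 and 323 (-2.95, adjusted p = 0.00493), and Mmp2, a gelatinase, from 2912 and 3126 to 685 and 782 (-2.20, adjusted p = 0.00833). Mmp23 differed by -2.45, and Mmp3 was at the floor at week 6, at least 10.6-fold lower. Mmp3 also passed the filter only through arrays of weeks 1 to 4, which fixed its fall and its part in the list count in part. In growth factor signalling 9 of 29 were lower and 3 higher (median -0.52), beside 10.6% lower and 15.6% higher of all genes tested. Igfbp4, which binds insulin-like growth factors, differed by -2.23, Inhba, an activin subunit, by -1.91, Fstl1 by -1.73 and Tgfb3 by -1.62. A dimmer probe set of Inhba went the other way and was not called (0.65, adjusted p = 0.395, limma over all probe sets). Igf1 went from 1278 and 2570 to 745 and 680 on its brightest probe set and was not called there (-1.51, adjusted p = 0.113), whereas its other 2 probe sets were called, at -2.14 and -2.19 (adjusted p = 0.0337 and 0.0392 in a fit over all probe sets). Tgfb1, near the floor in controls, was not called (-1.68, adjusted p = 0.129).

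Fibroblast markers were lower in 11 of 16 cases, beside 10.6% of all genes tested, and higher in 0 (median -1.49). Among them Thy1 had 754 and 864, then 66.8 and 72.3 (-3.70, adjusted p = 0.00582). S100a4 differed by -2.13. For Meox1 (-2.25) and C3, a complement component (-4.04), 1 array of week 6 was at the floor, so these differences are measured from a floor value: Meox1 read 9.70 and 28.2 at week 6 and C3 9.70 and 27.1. Meox1 would not have passed the filter without arrays of weeks 1 to 4, which in part fixed its fall and its part in the list count. Vim, the intermediate filament protein of fibroblasts and young muscle cells, differed by -1.03 and was partial. Tendon markers were lower in 4 of 9 (median -1.77), and the 6 displaced had returned. Comp went from 873 and 693 to 199 and 59.0, Thbs4 from 5396 and 4844 to 2774 and 1660, and Cilp2 differed by -3.24. Tnmd, tenomodulin of mature tendon, had 3377 and 2371 at weeks 3 and 4 and 857 and 440 at week 6, and was not called (-2.36, adjusted p = 0.0556). The list differed within the pair of week 6 (medians of 0.74 for rat 61 and -0.84 for rat 62), and their part in the matrix results was not tested.

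**Figure D2:**
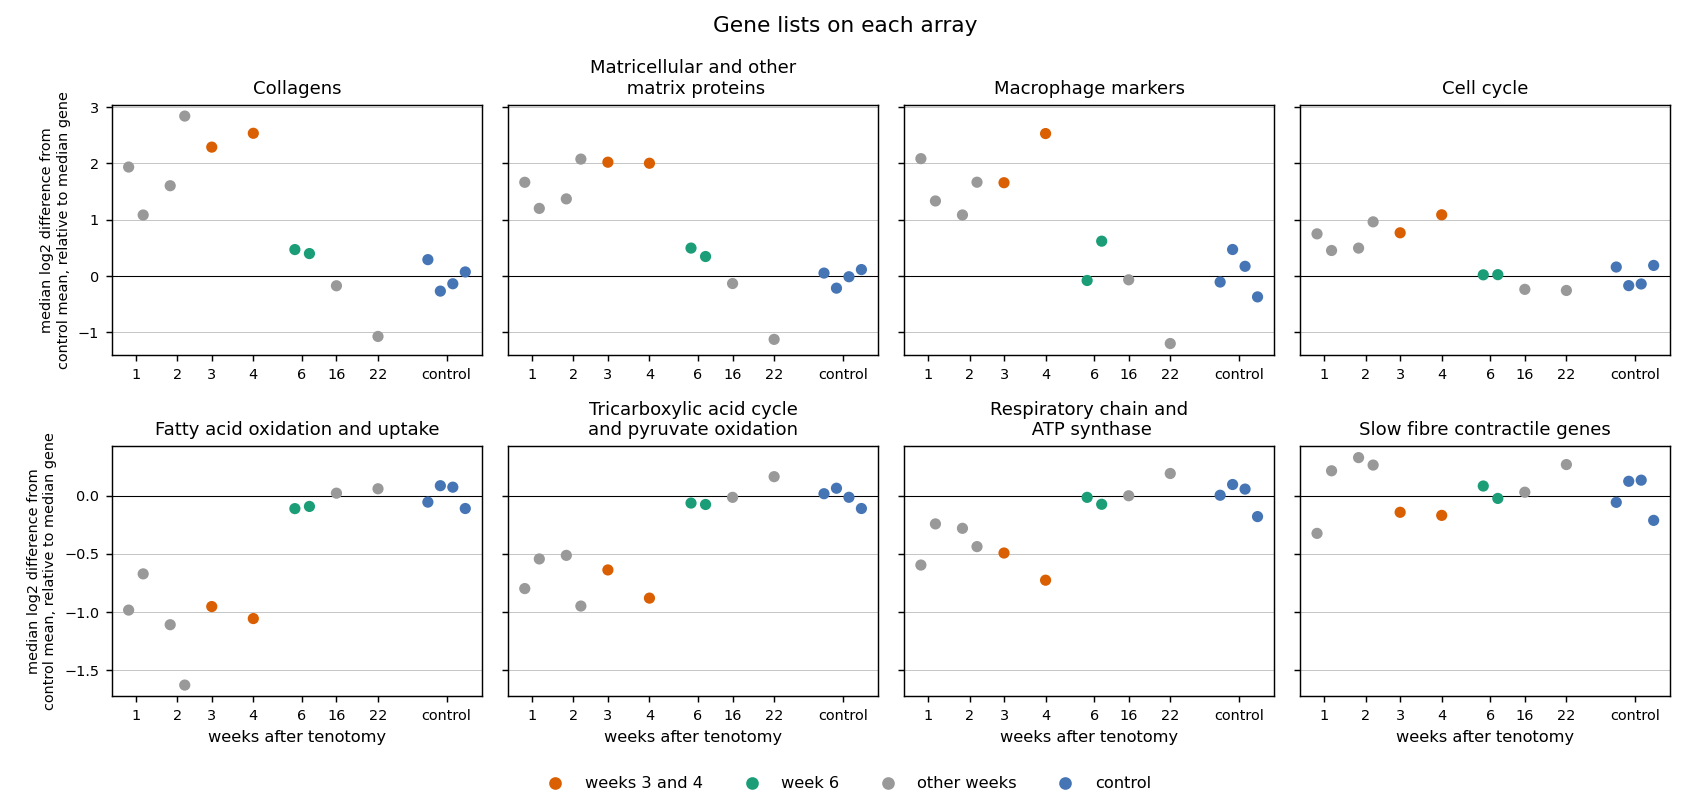
Median log2 difference from the control mean over the members of 8 gene lists, relative to the median gene of the array (y axis), on each of the 14 arrays by weeks after tenotomy (x axis, not to scale). Matrix, macrophage and cell cycle medians are above 0.7 at weeks 3 and 4 and below 0.7 at week 6, and the 3 metabolic lists are near 0 at week 6.

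Macrophage markers were lower at 6 weeks and most had returned. Of 25 macrophage markers 18 were lower at 6 weeks and 0 higher (median -1.90), 16 of them in all 6 scalings. Over all genes tested 10.6% were lower, and 7.63% in all 6 scalings. Of the 24 displaced, 23 had returned and 1 was partial, a median return of 86.8%, beside 75.5% for the displaced matricellular genes. The list median was 1.66 and 2.53 above control at weeks 3 and 4. At week 6 it was -0.08 for rat 61 and 0.62 for rat 62. Aif1, a calcium-binding protein of macrophages, had signals of 220 and 388, then 46.9 and 74.4, beside 39.8 to 59.5 in controls (-2.46, SE 0.36, adjusted p = 0.00355). Cybb, the core of the phagocyte oxidase, went from 144 and 346 to 29.4 and 65.7 (-2.50, adjusted p = 0.00933), and Cd68, of their lysosomes, from 216 and 495 to 69.6 and 120 (-2.00, adjusted p = 0.0194). Fcer1g, an Fc receptor chain, went from 714 and 1809 to 252 and 334 (-2.13, adjusted p = 0.0104). In each of these 4 the week 4 array was brighter than the week 3 array, and rat 62 brighter than rat 61 at week 6. Trem2 differed by -2.36, and Itgam was at the floor on both arrays of week 6. Both passed the filter only through arrays of weeks 1 to 4, which in part fixed their fall and their place in the list count. Dimmer probe sets of Aif1 and Cybb were lower but not called (-0.69 and -1.07, adjusted p = 0.439 and 0.384, limma over all probe sets). A dimmer one of Trem2 was called (-2.74, adjusted p = 0.0199).

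Lymphocyte and antigen presentation markers were lower in 5 of the 13 tested, from a list of 24, and higher in 0. Over all genes tested 10.6% were lower and 15.6% higher. Of the 6 displaced members 3 had returned and 3 were partial. RT1-Da, a class II chain that presents antigen, had 1827 and 2206, then 470 and 878, beside 311 to 562 in controls (-1.80, adjusted p = 0.00738). RT1-Db1 and RT1-Ba, of the same family, differed by -1.90 and -1.74, and Ptprc, the common leukocyte antigen, by -1.97. Chemokines and an elastase of inflammation were among the 10 largest falls. Cxcl13, which attracts B cells, went from 220 and 1029 to 17.1 and 9.70 (-5.36, adjusted p = 0.00455). Mmp12, the macrophage elastase, was at the floor at week 6 after 130 and 793, at least 33.2-fold lower. Ccl9 differed by -4.37 and Lbp, which carries bacterial lipopolysaccharide, by -4.39. Mmp12 and Ccl9 passed the filter only through arrays of weeks 1 to 4, and Cxcl13 would not have passed without those arrays. This fixed the fall of each of these genes in part. Mast cell and granulocyte markers had 0 of 9 called, and red blood cell markers 0 of 4, where 26.2% of all genes tested were called.

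Markers of dividing cells and of nerve were lower in part, where 10.6% of all genes tested were lower. Of 32 cell cycle genes 11 were lower and 0 higher (median -0.92), and 9 of 13 displaced had returned. Mki67, the proliferation antigen, went from 123 and 133 to 17.7 and 30.1, beside 16.0 to 34.3 in controls (-2.63, adjusted p = 0.0074). Cks2, Ccnd2 and Cdkn3 differed by -2.95, -2.50 and -2.26. Cdkn3 would not have passed the filter without arrays of weeks 1 to 4, which in part fixed its fall and its part in the list count. Schwann cell markers were lower in 4 of the 6 tested, from a list of 16. Pmp22 and Mbp, both of myelin, differed by -1.25 (adjusted p = 0.00262) and -2.12 (adjusted p = 0.014), S100b by -1.30, and Egr2, a myelin transcription factor, by -1.98. Endothelial markers were lower in 1 of 15, Plvap of fenestrated vessels (-1.97, adjusted p = 0.0035). Smooth muscle and pericyte markers were lower in 2 of 16 (Tagln, -1.39, and Mylk, -0.84) and higher in 1 (Abcc9, 0.58). For endothelial and for smooth muscle markers the share called was below the 26.2% of all genes.

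Genes of oxidative metabolism were higher at 6 weeks, and most displaced members had returned. Over all genes tested 15.6% were higher and 10.6% lower. In fatty acid oxidation and uptake 24 of 33 were higher and 0 lower (median 0.91), and 20 of 23 displaced had returned. In the tricarboxylic acid cycle and pyruvate oxidation 22 of 27 were higher and 1 lower (median 0.72), and among subunits of respiration and of ATP synthase 48 of 71 were higher and 0 lower (median 0.57). The 11 displaced genes of the cycle and the 13 of the respiratory chain had all returned. These rises were smaller than the matrix falls and depended more on the scaling: 15, 9 and 16 members were higher in all 6 scalings. Fatty acid oxidation stood at -0.95 and -1.05 from control at weeks 3 and 4 and at -0.11 and -0.09 at week 6.

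Hadh, which oxidises hydroxyacyl-CoA, had signals of 1635 and 1277 at weeks 3 and 4, 3547 and 3874 at week 6 and 4102 to 4931 in controls. Its 6-week arrays lay above both earlier arrays and still below each control (1.20, SE 0.20, adjusted p = 0.00316). Echs1, the enoyl-CoA hydratase, went from 526 and 585 to 1567 and 1482, beside 1603 to 1859 in controls (1.30, SE 0.19, adjusted p = 0.00262), again without overlap with the controls. Cpt1b, which lets fatty acids into muscle mitochondria, went from 2764 and 2216 to 4980 and 4671, beside 4816 to 5532 in controls, so 1 of its 6-week arrays lay among them (0.80, adjusted p = 0.00791). Etfdh rose by 1.39 and Eci2 by 1.47. Pdk2 and Pdk4, kinases that switch off pyruvate dehydrogenase, were higher by 1.23 and 0.90, while Pdk3 was the 1 lower member of its list (152 and 174, then 30.2 and 35.8, -2.47, adjusted p = 0.00976). Pdhx and Pdp2 were higher by 1.05 and 0.97, and Sdha, of complex II, by 0.74. In complex I, Ndufa5 went from 1503 and 837 to 2922 and 3527 (1.36, adjusted p = 0.00455), Ndufb8 differed by 1.49 and Ndufs4 by 1.16. Ndufs1, with 2298 and 1065, then 4125 and 4237, was not called (1.26, adjusted p = 0.0653). Ppargc1b, a coactivator of mitochondrial genes, was higher by 1.65, and its relative Ppargc1a was not called (1.06, adjusted p = 0.229).

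**Figure D3:**
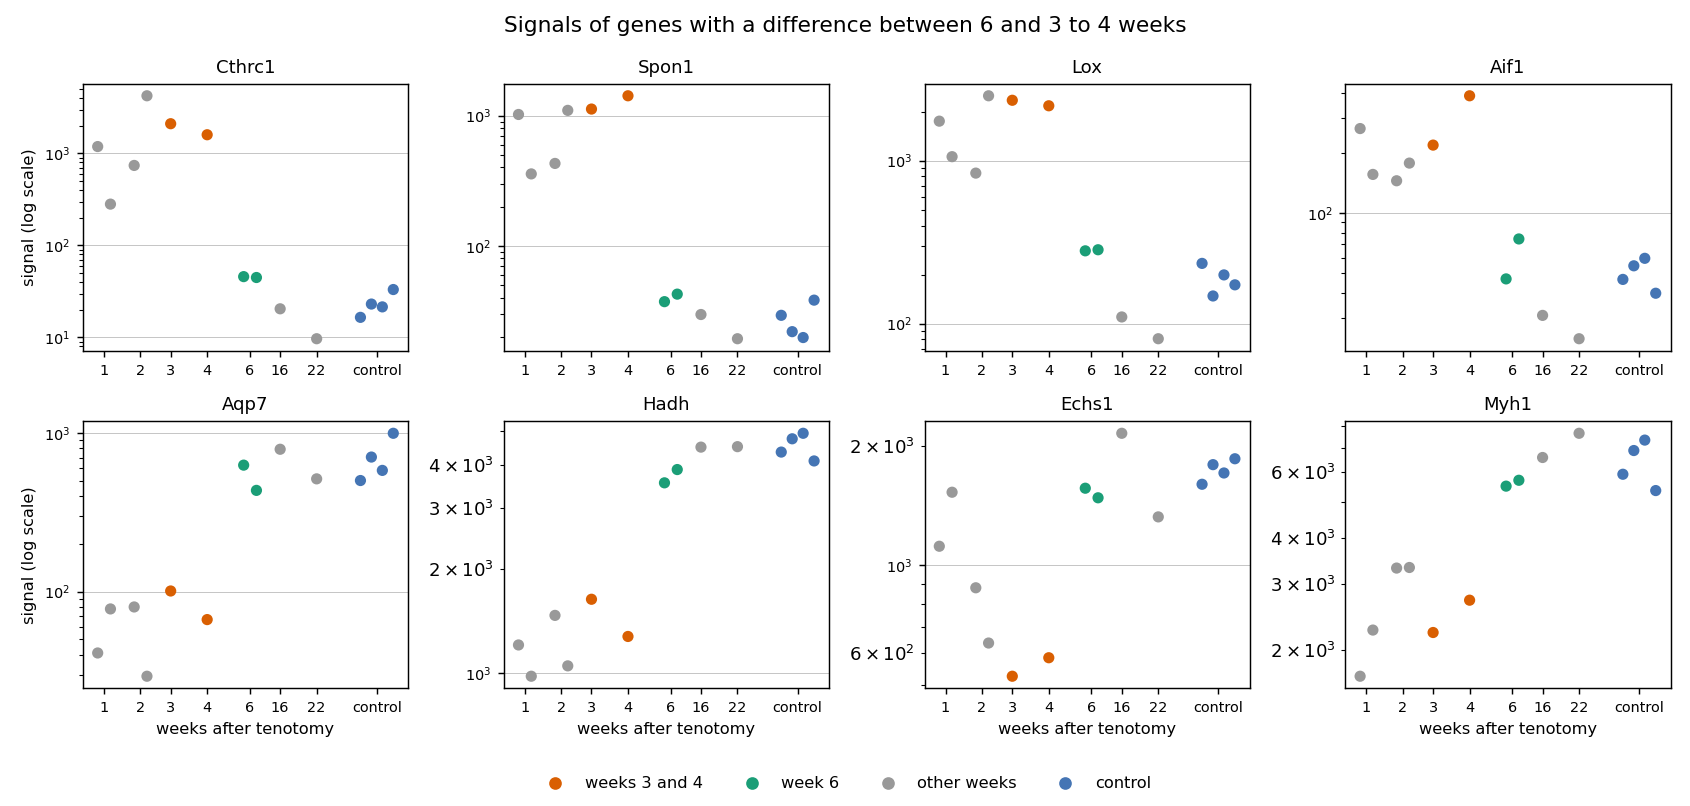
Signals on a log scale (y axis) of 8 genes on each of the 14 arrays by weeks after tenotomy (x axis, not to scale). Cthrc1, Spon1, Lox and Aif1 are lower, and Aqp7, Hadh, Echs1 and Myh1 higher, on both arrays of week 6 than on those of weeks 3 and 4.

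Genes of sugar use, lipid stores and protein turnover were called in both directions, where 15.6% of all genes tested were higher and 10.6% lower. In glycolysis and glycogen 13 of 33 were higher and 2 lower (median 0.42), of which 4 and 2 kept the call in all 6 scalings. Ppp1r1a, a phosphatase inhibitor, Phka1, a phosphorylase kinase subunit, and Ppp1r3a, which targets a phosphatase to glycogen, were higher by 1.40, 1.19 and 1.03, whereas Pygb, the brain form of glycogen phosphorylase, was lower (-1.47). Adipocyte markers gave 5 higher and 2 lower of 21 (2 and 0 in all 6 scalings): Aqp7, a glycerol channel, and Plin4, a lipid droplet coat, were higher, and Fasn (-1.23) and Acly (-0.98), of fatty acid synthesis, lower. Adipoq, which defines fat cells, was not called (210 and 150, then 118 and 129, adjusted p = 0.522). Proteasome subunits gave 12 higher and 2 lower of 39 (median 0.29), but 0 of the rises and both of the falls were called in all 6 scalings, and the rises numbered from 0 on the deposited scale to 15 with a common median over all probe sets. The 2 lower are the immune forms Psmb8 (-2.35) and Psmb9 (-1.34), and among the higher were Psmc5 (0.82) and Psme4 (0.69). In the list of atrophy ligases and autophagy 6 of 26 were higher and 1 lower, near the 26.2% of all genes called, 2 and 0 of them in all 6 scalings. Mul1, a mitochondrial ligase, was higher by 1.42 and Foxo4 by 1.12. Trim63, the muscle ligase MuRF1, went from 634 and 386 to 1210 and 1066, beside 1118 to 2219 in controls (1.04, adjusted p = 0.0378). Fbxo32, the other classic atrophy ligase, was not called (0.89, adjusted p = 0.162), and Ctsl, a lysosomal protease, was lower (-0.76).

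Contractile genes were called in 2 of 15 members of the slow list and 3 of 15 of the fast list, both below the 26.2% of all genes called. In the slow list 2 were higher, neither in all 6 scalings, and 0 lower: Casq2, which stores calcium, by 0.72 and Myh6 by 0.80, and Myh7 was not called (0.13, adjusted p = 0.317), nor Atp2a2 (0.18, adjusted p = 0.216). In the fast list Myh1, the IIx myosin, was higher (2225 and 2719, then 5512 and 5716, beside 5363 to 7332 in controls, 1.03, adjusted p = 0.00433). Of its other 4 probe sets, 2 were called higher as well, at 1.31 and 0.98 (adjusted p = 0.0121 and 0.0166), and 2 were not called, at 0.94 and -0.44 (adjusted p = 0.0772 and 0.626, limma over all probe sets). Myh4, the IIb myosin, was lower (177 and 59.2, then 27.5 and 13.7, adjusted p = 0.0418), as was Pvalb, parvalbumin (34.1 and 175, then 9.70, the floor, and 25.8, -2.45). Not called were Myh2 (0.07), Myh8 (0.47), Atp2a1 (0.26), Chrna1 (0.31), Ankrd1 (-1.80), Ankrd2 (0.42), Csrp3 (-0.11), Hspb1 (0.14) and Cryab (0.14). For Myh2 the controls fell apart, at 7221 and 8422 in controls 1 and 2 against 987 and 575 in controls 3 and 4, so no return can be read for it. The muscle regulators Myf6 and Myog were higher by 0.74 and 0.47, and Colq, which anchors acetylcholinesterase at the end-plate, by 0.78, none of them in all 6 scalings.

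The remaining lists are read against the 26.2% of all genes called. Chaperones gave 7 higher and 1 lower of 32, near that background, with 1 and 0 called in all 6 scalings. Among them were Hspb3 (1.15), Unc45b, which folds myosin (0.86), Hspa9 (0.84) and, lower, Hsp90b1 of the endoplasmic reticulum (-1.06). Cytosolic ribosomal proteins gave 1 of 31, Rpl3 of the large subunit (-0.99, adjusted p = 0.013). Clock genes gave 3 higher and 1 lower of 18, also near the background (0 and 1 in all 6 scalings): Nfil3 (1.89), Bmal1 (1.12) and Cry1 (0.99) were higher and Bhlhe41 lower (-1.29). Of 23 stretch and load responsive genes 1 was called, Tgfb1i1 (-1.37, adjusted p = 0.0494). Of 11 widely expressed check genes 2 were higher and 1 lower, again near the background: Tfrc (1.76), Sdha and Gusb (-1.84).

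The 10 largest rises were led by E2f2 and Aqp7. E2f2, a cell cycle transcription factor, had 20.7 and 30.8, then 222 and 202, beside 49.5 to 319 in controls (2.91, SE 0.65, adjusted p = 0.00862). Aqp7 had 101 and 66.6, then 627 and 435, beside 502 to 996 in controls (2.51, SE 0.47, adjusted p = 0.00468), so both 6-week arrays were clear of the earlier ones and the array of rat 61 lay among the controls. Cenpx, a centromere protein, went from 27.5 and 13.8 to 116 and 107 (2.36), and Cox7a1, the muscle form of a respiratory subunit, was higher by 2.33, with both 6-week arrays above both earlier ones. Zfp474 (2.25), Ap5s1 (2.06), Fam216b (2.04), Sp4 (2.00), Epn3 (1.96) and Slc25a33, a pyrimidine carrier of mitochondria (1.95), complete the 10. Without the week 4 array, Cenpx and Ap5s1 kept an adjusted p below 0.05 (0.0409 and 0.0372), while the other 8 lost the call. E2f2, Aqp7 and Cox7a1 came to 0.0554, 0.0548 and 0.0532, Zfp474, Sp4 and Slc25a33 to 0.0620, 0.0791 and 0.0994, and Fam216b and Epn3 to 0.138 and 0.151. For Zfp474 and Epn3, 1 array of weeks 3 and 4 was at the floor.

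Among the 638 partial genes, the 8 farthest from control at weeks 3 and 4 were Sfrp2, Igsf10, Ccn5, Reep6, Trib3, Obp3, Sfrp4 and Postn. Sfrp2, which binds Wnt ligands, had signals of 548 and 522, then 51.9 and 79.1, beside 13.7 to 34.5 in controls. Both 6-week arrays were far below the earlier pair yet above each control (-3.22, SE 0.41, adjusted p = 0.00262), and 66.4% of the distance was closed. Sfrp4, a relative, went from 2139 and 3086 to 310 and 635, beside 126 to 326 in controls (-2.69, adjusted p = 0.00359), and Ccn5, a matricellular protein, from 419 and 567 to 45.5 and 86.7 (-3.11, adjusted p = 0.00262). Igsf10 (-3.15), Obp3 (-2.80) and Thbs3 (-1.38) were partial as well, and Pamr1 (-3.86) had returned by the 75% limit. In the other direction Reep6, a membrane-shaping protein, went from 23.8 and 15.5 to 77.3 and 78.2, all below the controls (1.86, adjusted p = 0.00939), closing 50.9%. On the later arrays 530 of the 638 partial genes had closed 75% or more at 16 weeks and 482 at 22 weeks.

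The 16 lagging genes were Aplnr, Fxyd6, Id4, Mamdc2, Myh3 and Sln, higher than control at weeks 3 and 4, and Arhgef2, Cldn2, Eif4ebp1, Fgf21, Fut1, Gars1, Prelid2, Riok2, Samd12 and Top1mt, lower. None was called between the times. Myh3, the embryonic myosin that marks new or immature fibres, had 2077 and 1896 at weeks 3 and 4 and 2069 and 1631 at week 6 (-0.27, adjusted p = 0.903). Its controls were 310, 447 and 402 in controls 1 to 3 and 1625 in rat 61, so the left muscle of rat 61 lay beside the tenotomized muscles for this gene. Sln, sarcolipin, which binds the calcium pump, had 5084 and 3390, then 5066 and 4471, beside 1638 to 1960 in 3 controls and 3188 in rat 61 (0.04, adjusted p = 0.692). Both were bright again at 22 weeks (2957 and 6301) after 658 and 2128 at 16 weeks. Arhgef2 had 287 and 314, then 225 and 332, beside 1102 to 2231 in 3 controls and 240 in rat 61.

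The control muscle of rat 61 bears on this class as a whole. For 13 of the 16 lagging genes (81.3%) it was the control on the tenotomized side of the other 3, against 254 of 638 partial genes (39.8%) and 451 of 1567 returned genes (28.8%). Rat 61 also gave a 6-week muscle of the opposite leg. Without that control, 29 genes differed between 6 weeks and control, 24 lower and 5 higher. For each of the 29 the left muscle of rat 61 lay outside the other 3 controls. That position follows largely from how they were picked, since with this control included 0 genes were called. The 29 include Stbd1, which tethers glycogen (602 and 703 at week 6, 2578 to 3410 in 3 controls, 801 in rat 61), Casp4, Ifi27l2b, Myc and, higher, Fxyd6, Thbs3, Myh3 and Sln. Then 56 genes lagged in place of 16. The labels say nothing that sets this muscle apart, and what made it differ was not tested.

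Of the 29 genes, 13 belong to the amino acid response, the program by which cells short of amino acids raise the transcription factor ATF4 and with it amino acid synthesis, import and tRNA charging. A list of this program was drawn up after these values had been seen, so its counts are a description. Of its 46 members tested, 23 were lower and 3 higher than control at weeks 3 and 4, where 25.8% of all genes were lower and 16.5% higher. Between the times 5 were higher at 6 weeks (Atf4, Cebpb, Herpud1, Mars1 and Vldlr) and 3 lower (Aldh1l2, Nupr1 and Pck2), beside the backgrounds of 15.6% and 10.6%. Pck2 would not have passed the filter without arrays of weeks 1 to 4, which fixed its fall in part. The list median relative to control was -0.85 and -1.01 at weeks 3 and 4, -0.88 and -0.62 at week 6, 0.28 at 16 weeks and 0.04 at 22 weeks. Of its 24 displaced members 4 had returned, 17 were partial and 3 lagged, a median return of 49.9% beside 83.6% for all displaced genes. The control of rat 61 lay below the other 3 in 39 of 46 members (84.8%), beside 27.3% of all genes tested, and both 6-week arrays lay below those 3 controls in 37 (80.4% beside 16.2%).

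Asns, which makes asparagine, had signals of 138 and 134 at weeks 3 and 4, 43.8 and 76.7 at week 6, and 698, 1030 and 1713 in controls 1 to 3, but 43.6 in rat 61. With the 4 controls it was not called at 6 weeks against control (-3.05, SE 1.06), and without rat 61 it was (-4.21, SE 0.38, adjusted p = 0.000637). Phgdh and Psat1, which make serine, read 17.6 and 53.2, and 27.1 and 54.5, at week 6. Controls 1 to 3 read 373 to 793 and 358 to 400, and rat 61 was at the floor for both. Mthfd2, of mitochondrial folate metabolism, read 29.4 and 119 at week 6, beside 564 to 1064 and, in rat 61, 40.5. Among tRNA synthetases Gars1 had 771 and 707, then 864 and 957, beside 1953 to 2664 in 3 controls and 877 in rat 61, and Sars1 and Eprs1 closed 44.5% and 31.4% of the distance. The carriers Slc3a2 and Slc7a1 differed by 0.61 and -0.65 between the times, and neither was called (adjusted p = 0.0669 and 0.611).

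Fgf21, a hormone that muscle and liver release under nutrient stress, and Trib3, a pseudokinase that restrains ATF4, were at the floor on several arrays of weeks 3 to 6. Fgf21 was at the floor at weeks 3 and 4 and read 9.70 and 12.9 at week 6, beside 115 to 156 in 3 controls and the floor in rat 61. Trib3 read 13.4 and 9.70, then 9.70 and 52.1, beside 288 to 616 in 3 controls and the floor in rat 61. Neither was called between the times (adjusted p = 0.895 and 0.665). Both were brighter later, Fgf21 at 107 and 42.2 and Trib3 at 544 and 75.9 at 16 and 22 weeks.

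**Figure D4:**
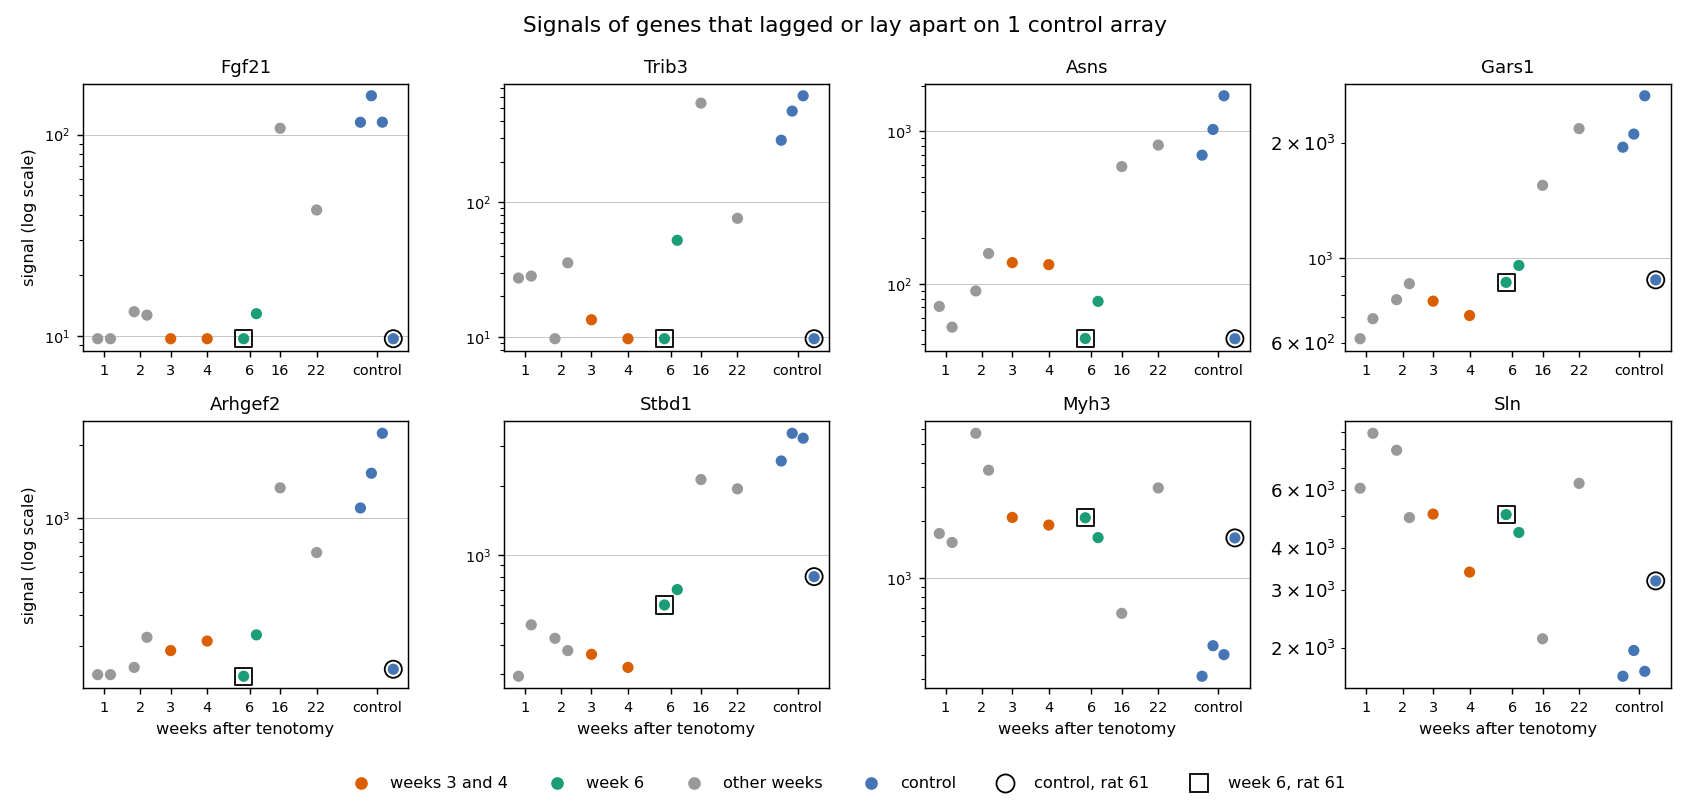
Signals on a log scale (y axis) of 8 genes on each of the 14 arrays by weeks after tenotomy (x axis, not to scale). The circle marks the control of rat 61, which lies apart from the other 3 controls, towards the arrays of weeks 3 to 6, and the square the 6-week array of the same rat.

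ATF4 and its partners of the C/EBP family bind a composite element whose core can be written TGATGNAA. In the RefSeq table (build GRCr8), 41 of the 46 members had a promoter, taken as the 250 bases before the gene start. The core occurred on either strand in 12 of the 41 (29.3%), beside 3.40% of all 33465 promoters of the table and 1.82% of the promoters of tested genes. It occurred in 3.90% of partial and 1.74% of returned genes, and in 1 of the 8 lagging genes with a promoter, Fgf21. The other motifs searched on both strands, the AP-1 site TGACTCA and the estrogen-related receptor element TCAAGGTCA, occurred in 7.32% and 0% of the list, beside 4.05% and 0.39% of all promoters and 3.18% and 0.19% of those of tested genes. In 1 promoter of the list both the core and the AP-1 site occurred. The motifs were chosen after the values had been seen. The list holds genes of a program that runs through ATF4, so an excess of its core was in part built into the list. The share of 29.3% is therefore no result of these arrays. The 250 bases before the start are shown, 5′ to 3′ on the gene's strand with the match in capitals (the core or its reverse complement), for the 4 members Fgf21 (chr1:105221377-105221626, minus strand), Trib3 (chr3:161275534-161275783, minus strand), Mars1 (chr7:65023754-65024003, minus strand) and Slc7a1 (chr12:11664238-11664487, plus strand), because they cover a secreted hormone, a regulator, a tRNA synthetase and an amino acid carrier. A match is a run of letters and does not show that a factor bound there.
Fgf21: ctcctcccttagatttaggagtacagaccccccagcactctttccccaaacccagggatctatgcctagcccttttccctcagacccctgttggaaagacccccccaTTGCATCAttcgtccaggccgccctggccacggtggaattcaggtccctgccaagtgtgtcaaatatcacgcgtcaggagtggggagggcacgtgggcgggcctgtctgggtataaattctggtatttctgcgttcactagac
Trib3: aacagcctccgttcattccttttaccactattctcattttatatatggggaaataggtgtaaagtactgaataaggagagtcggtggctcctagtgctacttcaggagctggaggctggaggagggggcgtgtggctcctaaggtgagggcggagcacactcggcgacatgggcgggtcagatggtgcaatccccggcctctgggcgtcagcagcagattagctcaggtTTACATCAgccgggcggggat
Mars1: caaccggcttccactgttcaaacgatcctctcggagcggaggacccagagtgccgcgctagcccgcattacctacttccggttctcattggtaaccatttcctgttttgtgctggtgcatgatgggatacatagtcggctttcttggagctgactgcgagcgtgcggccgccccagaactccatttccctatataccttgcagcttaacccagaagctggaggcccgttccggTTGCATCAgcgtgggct
Slc7a1: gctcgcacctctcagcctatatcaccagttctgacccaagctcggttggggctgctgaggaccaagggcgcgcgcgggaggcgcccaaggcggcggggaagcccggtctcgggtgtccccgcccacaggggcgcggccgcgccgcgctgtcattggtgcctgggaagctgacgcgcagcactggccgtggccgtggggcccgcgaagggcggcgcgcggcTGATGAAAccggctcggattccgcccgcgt
The match began 143 bases before the start in Fgf21, 21 in Trib3, 17 in Mars1 and 30 in Slc7a1.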

How the data were processed

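RNA of 14 whole soleus muscles was hybridised to Affymetrix arrays, 1 muscle per array. The deposited values are linear intensity signals per probe set, made with MAS5 per the submitters' processing notes; scaling target, version and detection calls are not given in the sources used here. Signals were taken to log2, and each array was shifted to a common median over the genes tested. Values under the pooled 25th percentile (9.70) were raised to it. The brightest probe set stood for each of 14217 genes, named through probe annotation and GRCr8 symbols (20826 probe sets with 1 symbol, 436 with several, 9780 with none). A gene was tested if above the pooled 40th percentile (22.0) on at least 4 arrays, which left 11086. A gene dim in controls and at week 6 could pass only if bright on other tenotomized arrays, so its fall was in part fixed by this filter. Mstn did not pass, and Actc1 was not among the named probe sets. limma 3.58.1 in R 4.3.3 (lmFit, eBayes with trend) fitted 14 arrays with a mean per group, weeks 3 and 4 as 1 group, leaving 7 residual degrees of freedom; p-values were Benjamini-Hochberg adjusted over all genes, threshold 0.05. The script was tested on simulated data. Each test took arrays as independent, though rats 61 and 62 gave a control and a 6-week array each, a pairing known from the sample names that a rat block takes up; no rat links the 2 times compared.

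Named genes were the 10 largest called rises and falls without overlap, up to 4 called members of each of 31 lists, the 8 returned, partial and lagging genes farthest from control, and a preset list. Aldh1l2, Asns, Atf4, Casp4, Cebpb, Eif4ebp1, Eprs1, Gars1, Herpud1, Id4, Ifi27l2b, Mamdc2, Mars1, Mthfd2, Myc, Nupr1, Pck2, Phgdh, Prelid2, Psat1, Riok2, Sars1, Slc3a2, Slc7a1, Stbd1, Thbs3, Top1mt and Vldlr were added after their values were seen, as was the amino acid response list. The members and lists were chosen with earlier results of these data known. Alternatives covered scaling, floor, filter, probe sets, variance trend, a rat block and leaving out each array.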

Additional observations from a re-analysis of the deposited data

Results flagged for a closer look

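The difference from control at 6 weeks itself differed from that at weeks 3 and 4 for 2901 genes, by the limma test of the contrast between the times. The shared controls cancel in this contrast, so it repeats the main count and adds nothing about control.

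In 15 of the 185 genes named in the text 1 control array lay far from the other 3 (8.11%), against 681 of 11086 genes tested (6.14%), and chance flags about 5% of groups. In 7 the distant control was rat 61. Its signal was 9.70, the floor, for Fgf21 (115 to 156 in the others), Fut1 (91.7 to 105) and Psat1 (358 to 400). It read 450 for Ifi27l2b (4627 to 6776), 63.2 for Casp4 (771 to 1094), 3831 for Atf4 (5669 to 6008) and 152 for Slc25a33 (364 to 410). In 5 it was control 3: Ppargc1a read 2420 (320 to 360), Trim63 2219 (1118 to 1256), Fam216b 152 (76.4 to 80.3), Itgam 14.1 (9.70) and Myh8 11.0 (9.70 to 9.85). In 3 it was control 2: Mbp read 116 (52.1 to 58.9), Cks2 10.9 (22.2 to 23.1) and Mmp12 12.1 (9.70). Psat1, Ifi27l2b, Casp4 and Atf4 were added to the named genes after their values had been seen. The share of 8.11% and the tally for rat 61 are therefore in part built in by the choice of genes.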

How the results depend on the processing

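Between 6 and 3 to 4 weeks 1292 genes were called on the deposited scale, and 209 to 2783 when 1 array was left out, lowest without week 4. Against control, weeks 3 and 4 gave 3087 on the deposited scale and 1995 to 4383 with 1 array left out, and week 6 gave 1 with no filter and 0 to 29 with 1 array left out, 29 without the control of rat 61. Called members of the fixed lists numbered 290, 183 on the deposited scale and 31 to 290 with 1 array left out. With 1 array left out, displaced genes ran from 1313 to 2501, returned from 894 to 1975, partial from 415 to 758 and lagging from 2 to 56. Lagging genes numbered 9 with the replicate block by rat, 10 with limits of 80% and 20%, 117 among genes chosen at weeks 1 and 2 and 7 with no shared control. With displacement of a log2 of 2 or more, 398 were displaced, 294 returned, 101 partial and 3 lagged. With the replicate block by rat (correlation 0.325) 3002 genes were called between the times, and no other count moved by over 1.5 times. With the 4 arrays alone it was 3356. Of the 138 named genes called, 103 were called in all 6 scalings and 30 without week 4, and none changed sign in any setting run. Among uncalled genes the log2 difference changed sign for Fgf21 (-0.034) with common median over all probe sets, Myh2 (-0.089), Atp2a1 (-0.0058), Sln (-0.21), Hspb1 (-0.083), Gars1 (-0.042) with quantile normalization, Samd12 (-0.10), Cldn2 (0.036) with floor at the 5th percentile, Eif4ebp1 (0.048) with no filter, Arhgef2 (0.00666), Sln (-0.016), Eif4ebp1 (0.13), Riok2 (-0.023) with the replicate block by rat. With 1 array left out it changed sign for Arhgef2 from -0.58 to 3.67e-05, Chrna1 from -0.73 to 1.352, Csrp3 from -0.28 to 0.065, Eif4ebp1 from -0.18 to 0.071, Fgf21 from -0.16 to 0.26, Fut1 from -0.13 to 0.49, Mamdc2 from -0.23 to 0.73, Mthfd2 from -1.50 to 0.53, Myh2 from -0.023 to 0.17, Prelid2 from -0.11 to 0.25, Riok2 from -0.15 to 0.21, Samd12 from -0.34 to 0.65, Sln from -0.25 to 0.34, Top1mt from -0.46 to 0.75, Trib3 from -0.40 to 2.04. The cause was not tested.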
